A study of Mus musculus with 22 samples.

Results

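Csrp3, Cavin2 (also called Sdpr), Ufsp1, Ptn, Pde10a, Slc14a1, Mfsd2b and Scin are 8 genes outside the usual erythroid and megakaryocyte panels that had been seen at high levels in GATA1+LSK cells. They were chosen by symbol, from signals of the same arrays, so their levels in GATA1+LSK are given below as a description without a test. The array held 14 probes for these 8 of 19057 named genes, and all 8 were among the 11118 genes measured well enough to be tested. The arrays were hybridised with RNA of bone marrow populations sorted at 8 weeks of age from C57BL/6 mice, all GATA1-GFP transgenic, so the reporter was present in every group. They comprised GATA1+LSK (4 arrays), GATA1-LSK (4), LMPP (4), CMP (4) and LT-HSC (6). LSK cells are lineage-negative marrow cells with Sca-1 and c-Kit on their surface, here divided by the reporter. LMPP are lymphoid-primed multipotent progenitors, CMP common myeloid progenitors and LT-HSC long-term stem cells. The labels do not say whether replicates came from separate mice, so the errors measure the spread between arrays, which may be technical. Fewer cells carrying a transcript and less transcript per cell cannot be told apart in such bulk RNA.

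The 8 proteins have little in common in their known biochemistry. Csrp3 (muscle LIM protein) is a LIM-domain scaffold best known from the Z-discs of striated muscle, and Scin (scinderin, also adseverin) is a calcium-dependent actin-severing protein of the gelsolin family. Cavin2 binds phosphatidylserine and helps to shape caveolae, the flask-like pits of the plasma membrane. Mfsd2b exports sphingosine 1-phosphate from red cells and platelets, and Slc14a1 is the urea transporter that carries the Kidd blood group in humans. Ptn (pleiotrophin) is a secreted heparin-binding growth factor. Pde10a hydrolyses cyclic AMP and cyclic GMP and is best known from striatal neurons, and Ufsp1 is a protease that processes the ubiquitin-like modifier UFM1.

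Levels are log2 signals after background correction and quantile normalization, and a probe counted as detected on an array at a detection p under 0.05. Where a gene had several probes, the brightest detected one stood for it. Levels of different genes come from different probes and were not compared with each other. Between 12264 and 19015 probes were detected per array, and the arrays lay on 4 slides that only partly crossed the populations. Gata1 averaged 7.19 ± 0.68 in GATA1+LSK, 5.72 ± 0.36 in GATA1-LSK, 4.77 ± 0.21 in LMPP, 6.62 ± 0.20 in CMP and 5.02 ± 0.37 in LT-HSC (SD, n = 4, 4, 4, 4 and 6). Of the genes of the sort, Kit was detected on all 22 arrays and Cd48 on none. Flt3, which marks LMPP, averaged only 5.03 ± 0.27 there (SD, n = 4) and was detected on 3 of the 4 LMPP arrays.

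All 8 genes were higher in GATA1+LSK than in GATA1-LSK, LMPP and LT-HSC, with no overlap between arrays, and 6 of them were also higher than in CMP. Csrp3 and Scin went against the description of the group, because both had their highest mean in CMP. Over the 4 comparisons with GATA1+LSK, 30 of 32 pairs of gene and comparison had every GATA1+LSK array above every array of the other population, against 4.68% of such pairs over all tested genes. Of all tested genes, 3.61% lay above GATA1-LSK in this way, 5.99% above LMPP, 5.7% above CMP and 3.42% above LT-HSC, and 0.648% above GATA1-LSK, LMPP and LT-HSC together. Since the genes were picked for this pattern, nothing is read from that contrast.

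**Figure D1:**
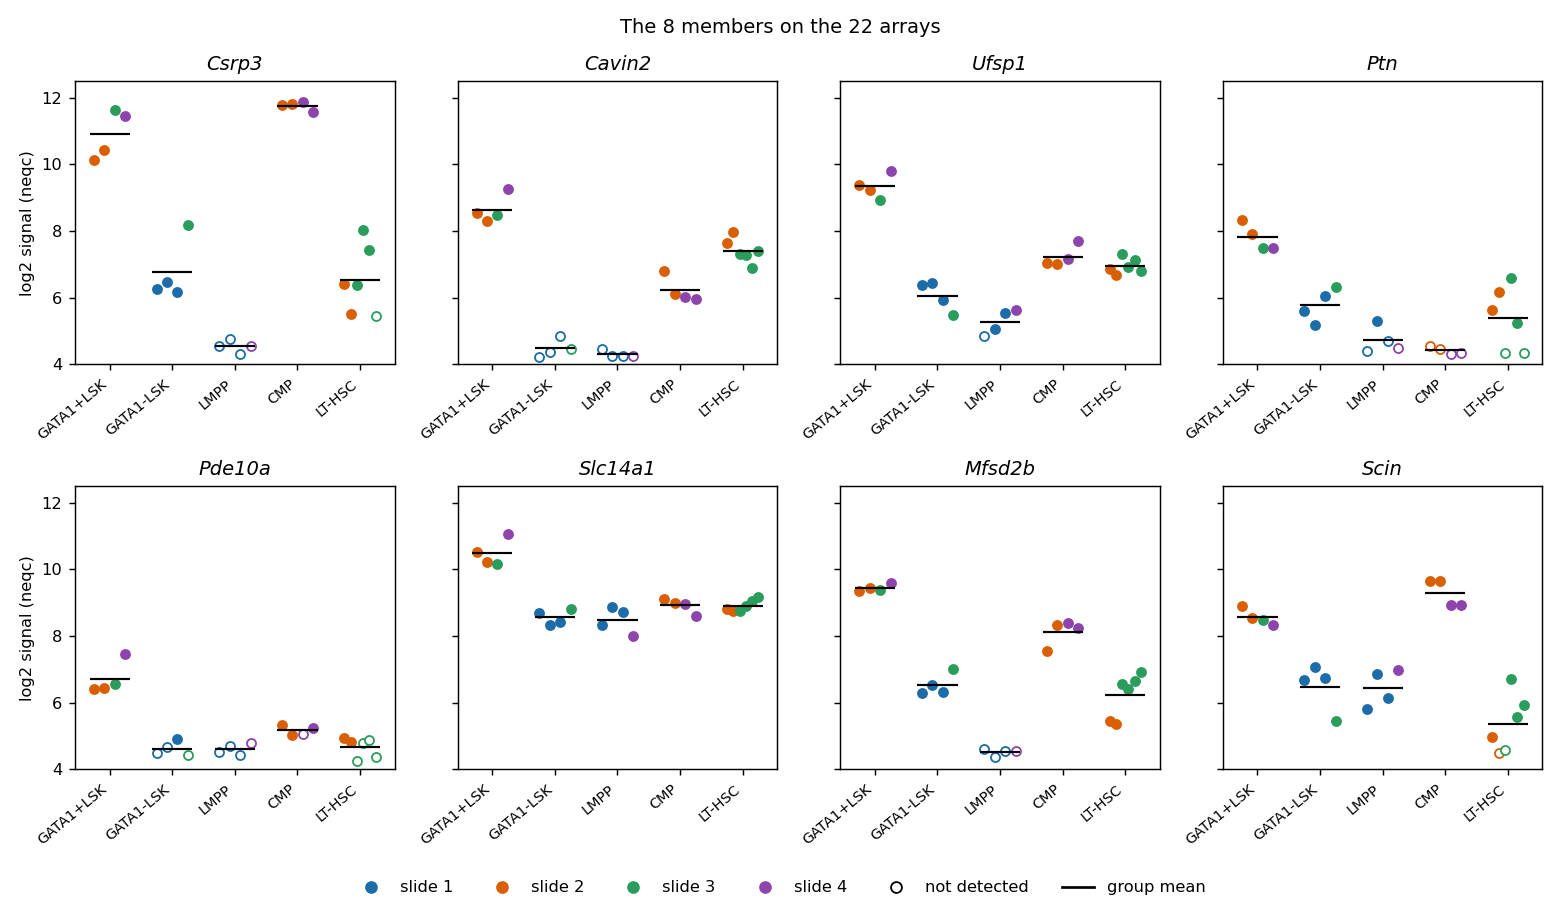
Log2 signal of the brightest probe of each of the 8 genes on each of the 22 arrays, grouped by population, with colour for the slide, open circles for arrays where the probe was not detected and a black line for the group mean. GATA1+LSK arrays lie above all GATA1-LSK, LMPP and LT-HSC arrays in every panel, while CMP has the highest mean for Csrp3 (11.76) and Scin (9.29).

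The muscle LIM protein gene Csrp3 had 10.12, 10.42, 11.63 and 11.46 in GATA1+LSK, against 6.27, 6.49, 6.18 and 8.17 in GATA1-LSK. It was at 4.55, 4.77, 4.30 and 4.55 in LMPP, where it was detected on no array, and at 11.78, 11.80, 11.87 and 11.58 in CMP. In LT-HSC it ran from 5.45 to 8.04 with a median of 6.40. GATA1+LSK and CMP were thus the high populations, their arrays overlapped, and LMPP was at background. The difference between GATA1+LSK and GATA1-LSK was 4.13 ± 0.50 (log2, SE). GATA1+LSK was at least 63.6-fold above LMPP, a bound set by the lowest detected signals on the LMPP arrays. Like all such bounds below, it holds for the means and carries no sampling error. GATA1+LSK minus CMP was -0.85 ± 0.50, with a 95% confidence interval that ran from -1.90 to 0.19. The lower GATA1+LSK values came from slide 2, where the gap to CMP was -1.52, while on slide 4 it was -0.27.

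The other cytoskeletal gene, Scin, had 8.89, 8.54, 8.48 and 8.33 in GATA1+LSK, against 6.67, 7.08, 6.73 and 5.46 in GATA1-LSK. It had 5.82, 6.86, 6.15 and 6.97 in LMPP and 9.64, 9.66, 8.93 and 8.93 in CMP. In LT-HSC it ran from 4.50 to 6.71 with a median of 5.26, and 2 of the 6 arrays did not detect it. Every GATA1+LSK array lay below every CMP array, by -0.73 ± 0.42 on average, and above the arrays of the other populations. The 95% confidence interval of the difference from CMP ran from -1.61 to 0.15, and the nearest arrays were at 8.89 and 8.93. The difference from LT-HSC was the widest, at 3.19 ± 0.38, and that from GATA1-LSK was 2.08 ± 0.42.

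Mfsd2b, the sphingosine 1-phosphate exporter, had 9.34, 9.44, 9.38 and 9.59 in GATA1+LSK, against 6.30, 6.54, 6.31 and 7.0 in GATA1-LSK. It had 4.60, 4.36, 4.56 and 4.55 in LMPP, on no array detected, and 7.55, 8.32, 8.39 and 8.24 in CMP. In LT-HSC it ran from 5.36 to 6.93 with a median of 6.47. The GATA1+LSK arrays were close together (SD 0.11, n = 4), followed by CMP, then GATA1-LSK and LT-HSC, which overlapped, then LMPP. The difference from GATA1-LSK was 2.90 ± 0.29, that from CMP 1.31 ± 0.29 and that from LT-HSC 3.21 ± 0.27, while GATA1+LSK was at least 22.9-fold above LMPP.

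The caveola gene Cavin2 had 8.53, 8.29, 8.48 and 9.27 in GATA1+LSK, against 4.22, 4.38, 4.84 and 4.46 in GATA1-LSK. It had 4.45, 4.25, 4.25 and 4.24 in LMPP, 6.81, 6.13, 6.02 and 5.97 in CMP, and from 6.88 to 7.97 with a median of 7.35 in LT-HSC. It was detected on no array of GATA1-LSK or LMPP and on all arrays of the other populations. Here LT-HSC, not CMP, came second. GATA1+LSK was at least 12.7-fold above GATA1-LSK and at least 13.2-fold above LMPP, and the differences were 2.41 ± 0.25 from CMP and 1.23 ± 0.22 from LT-HSC.

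Ufsp1, the UFM1 protease gene, had 9.38, 9.24, 8.93 and 9.80 in GATA1+LSK, against 6.38, 6.45, 5.93 and 5.48 in GATA1-LSK. It had 4.85, 5.05, 5.53 and 5.62 in LMPP, 7.03, 7.01, 7.15 and 7.69 in CMP, and from 6.69 to 7.31 with a median of 6.88 in LT-HSC. The level was high in GATA1+LSK alone, and CMP and LT-HSC overlapped in second place. GATA1+LSK exceeded GATA1-LSK by 3.28 ± 0.25, LMPP by 4.08 ± 0.25, CMP by 2.12 ± 0.25 and LT-HSC by 2.39 ± 0.23.

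The secreted factor gene Ptn had 8.34, 7.92, 7.49 and 7.49 in GATA1+LSK, against 5.60, 5.17, 6.04 and 6.31 in GATA1-LSK. It had 4.40, 5.29, 4.69 and 4.48 in LMPP, where 1 array detected it, 4.56, 4.46, 4.31 and 4.34 in CMP, where none did, and from 4.33 to 6.60 with a median of 5.43 in LT-HSC. Of the 8 genes Ptn alone had its lowest mean in CMP, so its second place fell to GATA1-LSK, whose arrays overlapped those of LT-HSC. GATA1+LSK was at least 7.42-fold above CMP and exceeded GATA1-LSK by 2.03 ± 0.40. On slide 3, with 1 array of each, that last difference was 1.18.

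Pde10a, the phosphodiesterase gene, had 6.42, 6.43, 6.57 and 7.46 in GATA1+LSK, against 4.50, 4.66, 4.92 and 4.42 in GATA1-LSK. It had 4.52, 4.70, 4.43 and 4.80 in LMPP, 5.33, 5.04, 5.06 and 5.23 in CMP, and from 4.24 to 4.94 with a median of 4.81 in LT-HSC. Outside GATA1+LSK it was near background, detected on 1 GATA1-LSK array, no LMPP array, 3 CMP arrays and 2 LT-HSC arrays. GATA1+LSK was at least 3.49-fold above LMPP and exceeded CMP by 1.55 ± 0.22. Without the GATA1+LSK array of 7.46 the difference from CMP was 1.31.

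The urea transporter gene Slc14a1 had 10.52, 10.21, 10.17 and 11.07 in GATA1+LSK, against 8.68, 8.33, 8.42 and 8.82 in GATA1-LSK. It had 8.32, 8.88, 8.72 and 7.99 in LMPP, 9.10, 8.99, 8.97 and 8.60 in CMP, and from 8.76 to 9.16 with a median of 8.86 in LT-HSC. It was the only one of the 8 detected on all arrays, and the 4 populations other than GATA1+LSK lay close together, each overlapping its neighbour in the order of means. GATA1+LSK exceeded GATA1-LSK by 1.93 ± 0.22, LMPP by 2.02 ± 0.22, CMP by 1.58 ± 0.22 and LT-HSC by 1.59 ± 0.20.

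Slide and population were only partly crossed, so the differences were also read on each slide that held both populations, with 1 to 4 arrays a population. GATA1+LSK exceeded GATA1-LSK for 8 of 8 genes on slide 3, by 1.18 to 4.01, and LMPP for 8 of 8 genes on slide 4, by 1.36 to 6.91. Both of these readings rest on 1 array of each population. GATA1+LSK exceeded LT-HSC in 16 of 16 values on slides 2 and 3, by 0.61 to 4.80. It exceeded CMP in 12 of 16 values on slides 2 and 4, and the 4 values below 0 were those of Csrp3 and Scin. Where a population did not detect a gene, its background signal was used and the value shows a direction only. The genes were picked for high levels on these same arrays, and no share over all genes is given here. The counts are therefore a description, from which nothing is read.

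Csrp3 and Slc14a1 were each read by 3 probes with signal. The second and the dimmest probe of Csrp3 correlated with the brightest at r = 0.96 and 0.86 over the 22 arrays, and both put GATA1+LSK below CMP, by -0.77 and -0.59. The second probe of Csrp3 averaged 8.40 in GATA1+LSK and 9.17 in CMP and was detected on no array of GATA1-LSK or LMPP. The other probes of Slc14a1 followed the brightest less closely, at r = 0.49 and 0.53. Their means were also highest in GATA1+LSK, where their arrays ranged from 5.97 to 8.33 (second probe) and from 5.57 to 7.51 (dimmest). In CMP the arrays ranged from 4.48 to 6.997 and from 4.35 to 6.72, so that GATA1+LSK and CMP overlapped. On the second probe GATA1+LSK also overlapped GATA1-LSK (up to 6.21), LMPP (up to 6.90) and LT-HSC (up to 6.81). On the dimmest it overlapped LMPP (up to 6.18) and LT-HSC (up to 6.03), but not GATA1-LSK (up to 5.47). Ptn and Pde10a each had a second probe that was detected on no array, and in each case GATA1+LSK and GATA1-LSK differed by under 0.2 there (0.06 and -0.15). Which transcripts those silent probes read was not tested.

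**Figure D2:**
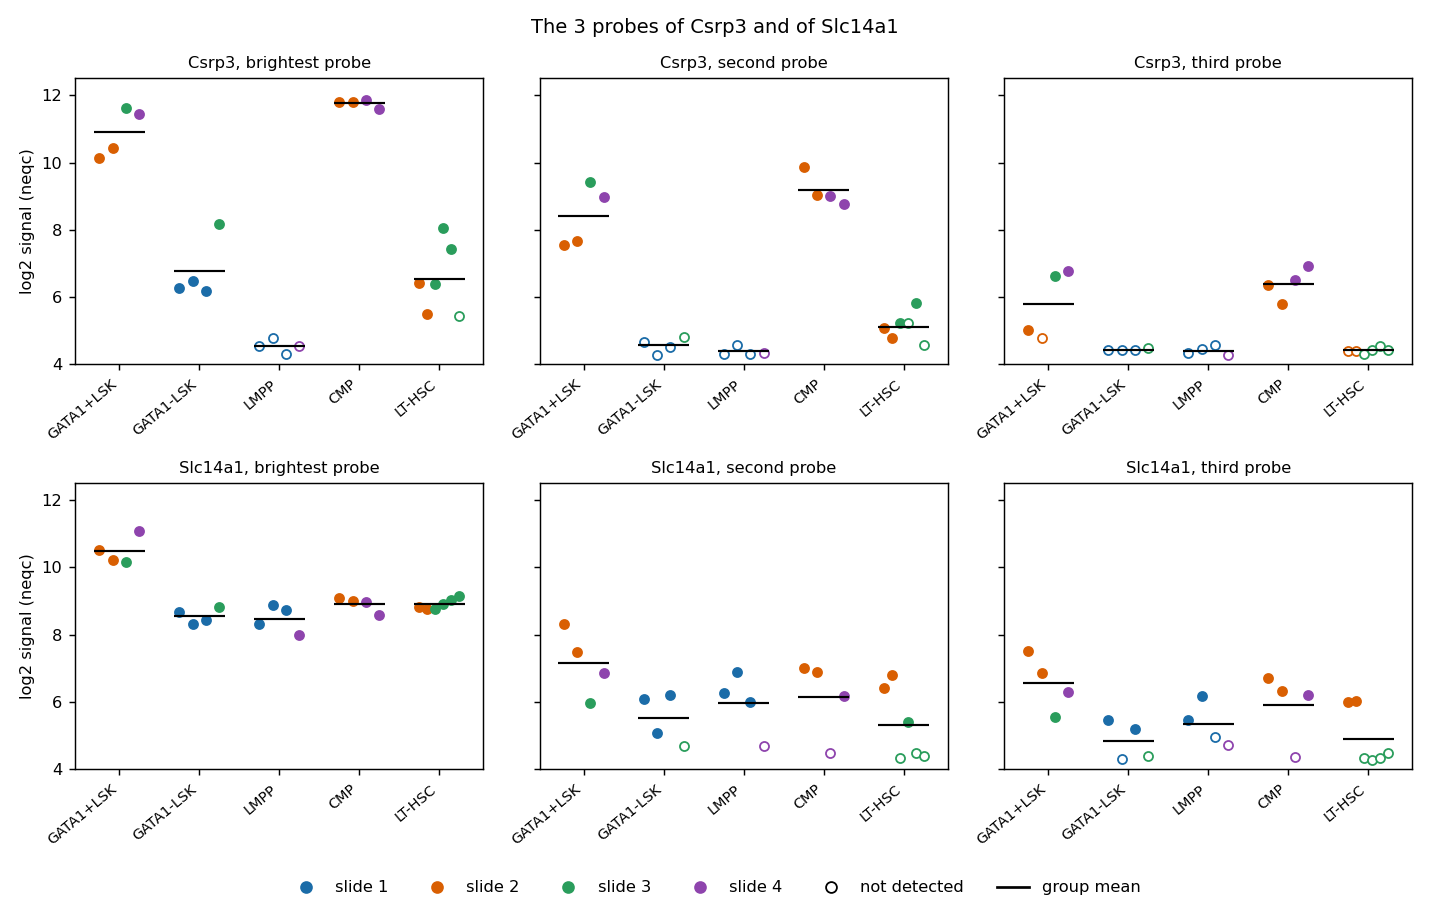
Log2 signal of the 3 probes of Csrp3 (top row) and of Slc14a1 (bottom row) on the 22 arrays, with colour for the slide, open circles for arrays where the probe was not detected and a black line for the group mean. The 3 Csrp3 probes share their 2 high populations, while the dimmer Slc14a1 probes spread widely within each population, their GATA1+LSK arrays running from 5.97 to 8.33 and from 5.57 to 7.51.

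The promoters of Csrp3, Cavin2, Ufsp1 and Mfsd2b are shown because these 4 genes differed most between GATA1+LSK and GATA1-LSK. GATA factors are known to bind words such as AGATAA and TGATAA, and KLF1, an erythroid factor, binds CACCC-type elements. Each window runs from 250 bases before to 50 bases after the annotated gene start (RefSeq, GRCm38.p6), and capitals mark CACCC on either strand, which reads GGGTG when it lies on the other one. The windows are chr7:48848002-48848301, minus strand, for Csrp3, chr1:51288876-51289175, plus strand, for Cavin2, chr5:137294419-137294718, plus strand, for Ufsp1 and chr12:4874310-4874609, minus strand, for Mfsd2b.
Csrp3: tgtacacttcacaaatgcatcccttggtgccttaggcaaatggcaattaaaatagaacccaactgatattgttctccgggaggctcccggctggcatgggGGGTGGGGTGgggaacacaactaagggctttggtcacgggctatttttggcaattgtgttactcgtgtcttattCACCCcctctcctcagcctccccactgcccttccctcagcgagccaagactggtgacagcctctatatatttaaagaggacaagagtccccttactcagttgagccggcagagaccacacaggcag
Cavin2: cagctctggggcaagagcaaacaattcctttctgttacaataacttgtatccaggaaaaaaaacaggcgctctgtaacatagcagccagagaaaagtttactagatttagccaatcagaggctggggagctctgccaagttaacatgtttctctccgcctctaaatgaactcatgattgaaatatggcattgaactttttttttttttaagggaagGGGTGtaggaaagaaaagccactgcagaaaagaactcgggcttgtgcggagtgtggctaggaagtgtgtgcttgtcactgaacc
Ufsp1: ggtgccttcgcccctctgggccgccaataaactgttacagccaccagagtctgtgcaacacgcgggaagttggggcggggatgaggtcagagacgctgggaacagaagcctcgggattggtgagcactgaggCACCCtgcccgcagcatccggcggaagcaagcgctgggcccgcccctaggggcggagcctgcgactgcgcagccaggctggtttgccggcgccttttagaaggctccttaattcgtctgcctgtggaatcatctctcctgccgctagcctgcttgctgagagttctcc
Mfsd2b: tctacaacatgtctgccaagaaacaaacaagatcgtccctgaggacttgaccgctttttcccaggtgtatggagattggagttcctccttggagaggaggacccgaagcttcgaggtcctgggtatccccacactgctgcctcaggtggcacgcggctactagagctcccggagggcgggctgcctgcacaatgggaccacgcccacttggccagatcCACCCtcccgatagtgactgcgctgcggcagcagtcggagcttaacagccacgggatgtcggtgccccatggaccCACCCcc

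AGATAA and TGATAA, searched on both strands, occurred in 0 of 9 windows of 7 of the 8 genes, while 18.6% of the 32851 windows of all genes held one. The gene left out was Slc14a1, on chromosome 18, so the counts over the 9 windows do not cover it. No such omission was made in the shares over all genes. CACCC occurred in 8 of the 9 windows, against 57.5% of all windows. In the windows printed above its first base lay at -150, -145 and -76 from the start of Csrp3, -34 from that of Cavin2, -118 from that of Ufsp1, and -32 and 44 from that of Mfsd2b, with minus for bases before the start. Csrp3 has a second annotated start, and its window (chr7:48843622-48843921, minus strand), not printed, is the 1 of the 9 with no CACCC. The related words AGATAG and TGATAG were not searched for and are in none of these counts. That second Csrp3 window holds AGATAG and, on the other strand, TGATAG, and the Scin window holds AGATAG on the other strand. A match is a run of letters and not a shown binding site, and the absence of one says nothing about regions outside these windows.

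The 6 comparisons among the 4 populations other than GATA1+LSK did not enter the choice of the genes and were tested. A linear model of all 22 arrays (limma, adjusted over all 11118 genes) called 23 of the 48 pairs of gene and comparison at an adjusted p under 0.05, where it called 10% of such pairs over all genes. It called 6 higher in the first-named population (5.35% of such pairs over all genes) and 17 lower (4.67%). By comparison it called 2 of the 8 genes for GATA1-LSK against LMPP (3.49% of all genes), 6 for GATA1-LSK against CMP (7.67%) and 2 for GATA1-LSK against LT-HSC (5.45%). It called 5 for LMPP against CMP (5.89%), 4 for LMPP against LT-HSC (16.2%) and 4 for CMP against LT-HSC (21.5%). These comparisons share their arrays and are not independent of each other. Leaving out slide 1 leaves 1 array each of GATA1-LSK and LMPP. That ended the calls of GATA1-LSK against LMPP for Csrp3 and Mfsd2b, against CMP for Csrp3, Cavin2, Mfsd2b and Ptn, and against LT-HSC for Ufsp1. Those of LMPP against CMP for Cavin2, Ufsp1 and Scin, and against LT-HSC for Csrp3, Ufsp1 and Mfsd2b, ended as well.

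Csrp3, Cavin2 and Mfsd2b were each called in 5 of the 6 comparisons, Ufsp1 in 4, Scin in 3, Ptn in 1, and Pde10a and Slc14a1 in none. Csrp3 was lower in LMPP than in CMP, at least 115-fold (limma adjusted p = 1.9e-09), and higher in CMP than in LT-HSC by 5.22 ± 0.45 (adjusted p = 2.0e-08). It was also lower in GATA1-LSK than in CMP by -4.98 ± 0.50 (adjusted p = 5.4e-07). Its levels in GATA1-LSK and LT-HSC were not told apart, with a difference of 0.24 and a 95% confidence interval from -0.72 to 1.19. It was lower in LMPP than in LT-HSC, at least 3.08-fold (adjusted p = 0.0034), a call that was lost with slide as a block (adjusted p = 0.25). The call for GATA1-LSK above LMPP (at least 3.63-fold, adjusted p = 0.0089) was lost when all detected probes of Csrp3 were averaged (adjusted p = 0.29).

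Mfsd2b followed the same order below GATA1+LSK. It was lower in LMPP than in CMP, at least 9.24-fold (limma adjusted p = 2.5e-08), and higher in CMP than in LT-HSC by 1.90 ± 0.27 (adjusted p = 1.4e-05). GATA1-LSK lay between them, higher than LMPP by at least 3.07-fold (adjusted p = 1.0e-04) and lower than CMP by -1.59 ± 0.29 (adjusted p = 9.4e-04). Within slide 2 the difference was 2.53 for CMP minus LT-HSC.

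Scin was high in CMP against each of the other populations tested. Its difference was 3.92 ± 0.38 for CMP minus LT-HSC (limma adjusted p = 9.8e-08), -2.84 ± 0.42 for LMPP minus CMP (adjusted p = 9.7e-05) and -2.81 ± 0.42 for GATA1-LSK minus CMP (adjusted p = 9.2e-05). Unlike Csrp3 and Mfsd2b, it had its lowest mean in LT-HSC, and LMPP minus LT-HSC missed the threshold at 1.08 ± 0.38 (adjusted p = 0.058).

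Cavin2 ran the other way between CMP and LT-HSC. It was lower in CMP by -1.18 ± 0.22 (limma adjusted p = 4.9e-04), a call that was lost on the authors' own normalized values (adjusted p = 0.16) and with median scaling (adjusted p = 0.29). The gap was -1.33 within slide 2. GATA1-LSK and LMPP, in which Cavin2 was not detected, were lower than LT-HSC by at least 5.39-fold (adjusted p = 1.3e-07) and 5.63-fold (adjusted p = 1.8e-09). They were lower than CMP by at least 2.39-fold (adjusted p = 4.4e-05) and 2.49-fold (adjusted p = 1.4e-05), calls that were lost without slide 1. The call of GATA1-LSK against CMP was also lost with median scaling (adjusted p = 0.060).

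Ufsp1 was lower in LMPP than in CMP by -1.96 ± 0.25 (limma adjusted p = 1.4e-05) and lower than in LT-HSC by -1.69 ± 0.23 (adjusted p = 1.2e-05). It was lower in GATA1-LSK than in CMP by -1.16 ± 0.25 (adjusted p = 0.0037), a call that was lost with median scaling (adjusted p = 0.084). The call against LT-HSC (-0.89 ± 0.23, adjusted p = 0.023) ended without GATA1-LSK replicate 3 (adjusted p = 0.075), without replicate 4 of that population (adjusted p = 0.082) and without LT-HSC replicate 3 (adjusted p = 0.052). It also ended with median scaling (adjusted p = 0.569), without slide 3 (-0.52, adjusted p = 0.285) and in a fit of the 2 populations alone (adjusted p = 0.065). GATA1-LSK minus LMPP was not called (0.80 ± 0.25, adjusted p = 0.089) but was with slide as a block (0.97, adjusted p = 0.0073).

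Ptn was called only as higher in GATA1-LSK than in CMP, by at least 1.82-fold on the means (limma adjusted p = 0.039). The tested log2 difference, from the background signal in CMP, had a 95% confidence interval from 0.52 to 2.21. That call was lost without any 1 of 7 of the 8 arrays compared (adjusted p from 0.065 to 0.105) and with slide as a block (adjusted p = 0.065). With the replicate number as a block, which paired CMP and LT-HSC arrays, Ptn was also called lower in CMP than in LT-HSC (adjusted p = 0.016, against 0.063 without the block). For Pde10a the 6 differences ranged from -0.55 to 0.49 and for Slc14a1 from -0.44 to 0.09. Every CMP array of Pde10a lay above every array of GATA1-LSK, LMPP and LT-HSC, though limma called none of these differences (adjusted p = 0.164, 0.188 and 0.089). The 95% confidence interval of CMP minus LT-HSC was 0.07 to 0.92 for Pde10a and -0.42 to 0.43 for Slc14a1, which bounds the sizes that could have gone uncalled there.

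**Figure D3:**
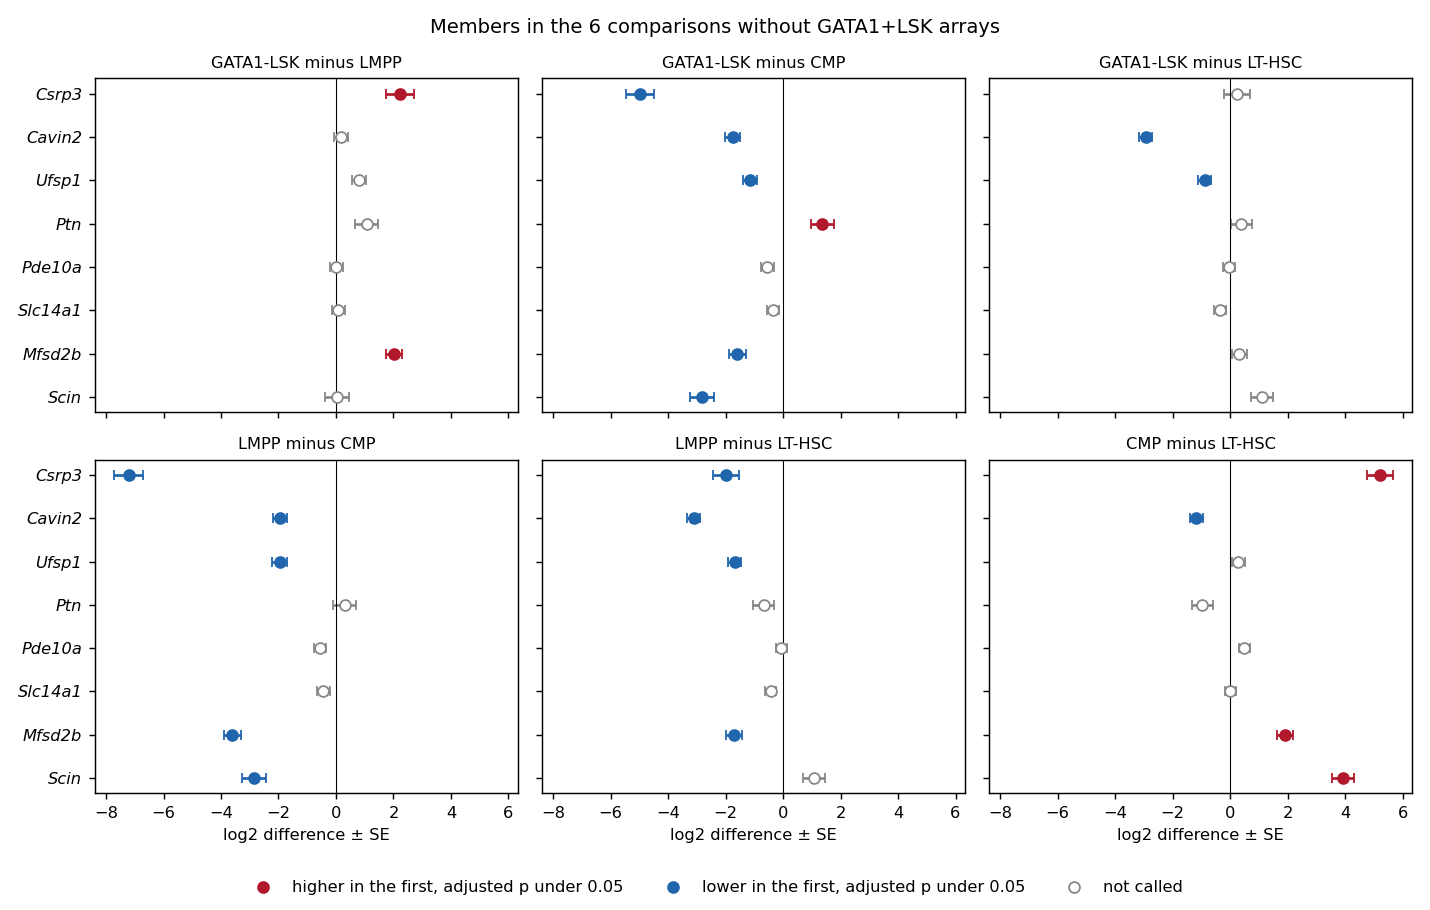
Log2 difference ± SE of the 8 genes in the 6 comparisons among GATA1-LSK, LMPP, CMP and LT-HSC, the first-named population minus the second, filled red where higher and filled blue where lower at a limma adjusted p under 0.05. A population that detected a gene on no array is drawn at its background signal, and such points show a direction only. Csrp3 is at -4.98 for GATA1-LSK minus CMP and 5.22 for CMP minus LT-HSC, while Pde10a stays between -0.55 and 0.49 and Slc14a1 between -0.44 and 0.09.

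Over the 22 arrays the 28 pairs of the 8 genes had Pearson correlations from 0.17 to 0.90 with a median of 0.69. The arrays share 4 slides and fall into 5 populations, and the common high level in GATA1+LSK enters each of these values. Over the 18 arrays without GATA1+LSK the range was -0.41 to 0.90 with a median of 0.39, and 6 pairs were below 0. Csrp3 and Mfsd2b stayed together (r = 0.90 over 22 arrays and 0.90 over 18). Cavin2 and Ufsp1 were at 0.86 and 0.74, and Csrp3 and Scin at 0.81 and 0.76. Ptn parted from the rest, with -0.41 to Scin and -0.21 to Csrp3 over the 18 arrays, and Slc14a1 and Pde10a were at 0.89 over the 22 arrays and at 0.13 over the 18.

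**Figure D4:**
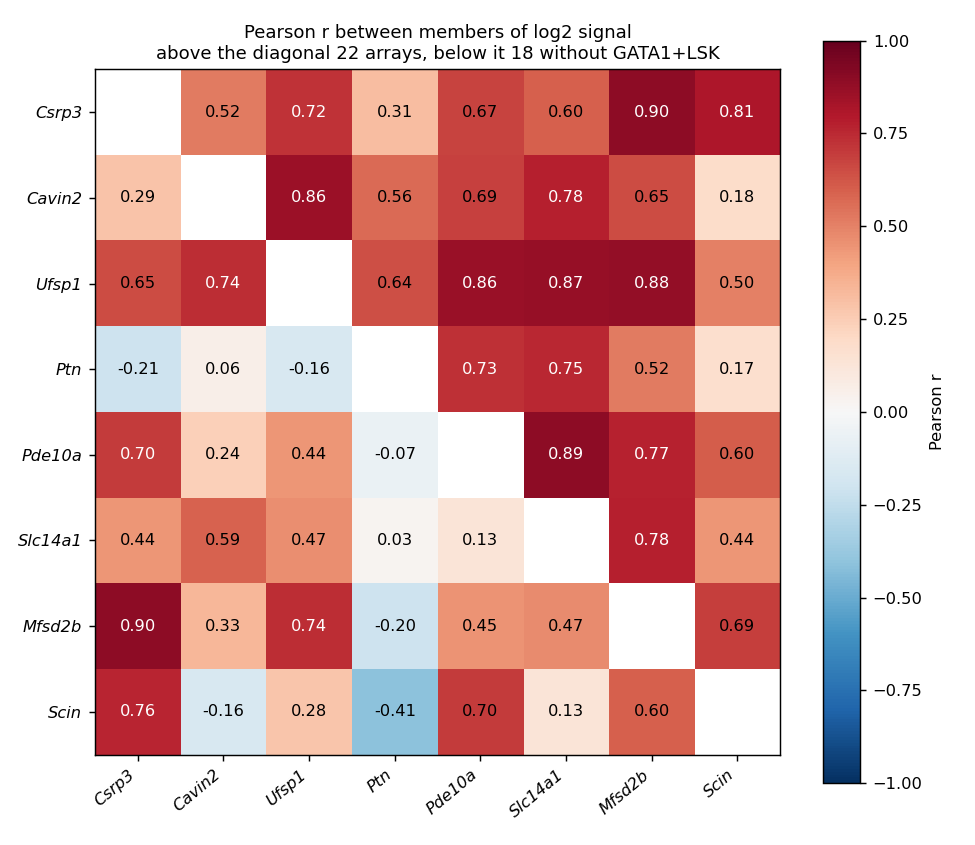
Pearson correlation of log2 signal for each pair of the 8 genes, over all 22 arrays above the diagonal and over the 18 arrays without GATA1+LSK below it. Csrp3 and Mfsd2b are at 0.90 on both sides, while 6 pairs, 5 of them with Ptn, are below 0 without GATA1+LSK.

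Of all other named genes, Csrp3 was most like Kcnc1 (r = 0.90), Gna14 (0.87) and Arap3 (0.87) over the 22 arrays. Mfsd2b was most like Arap3 (0.93), Cnr2 (0.93) and Itga2b (0.92), the last being the platelet integrin CD41. Scin was most like Hdgf (0.87), Kcnc1 (0.86) and Slc45a3 (0.85), so that Kcnc1, a potassium channel gene, was near both genes that peak in CMP. For Ufsp1 the nearest were Samd14 (0.92), Gp1bb (0.91), a subunit of the platelet von Willebrand factor receptor, and Aqp1 (0.87), a water channel of red cells. For Cavin2 they were Myom1 (0.89), Rap1b (0.89) and Vwf (0.87), the von Willebrand factor gene, which like Cavin2 had a lower mean in CMP (8.82) than in LT-HSC (11.62). Pde10a and Slc14a1 shared Dpf3 (0.94 and 0.87) and the mast cell and basophil protease gene Prss34 (0.93 and 0.91), with Mfap3l (0.92) and Sptb (0.85) coming next. Ptn was most like Slc6a8 (0.81), Gp9 (0.78) and Dlg3 (0.77). Gata1 itself correlated with Mfsd2b at 0.86, Csrp3 at 0.84, Scin at 0.81, Ufsp1 at 0.75, Pde10a at 0.73, Slc14a1 at 0.64, Ptn at 0.55 and Cavin2 at 0.43. Those values contain the high GATA1+LSK level for which the genes were chosen. Over the 18 arrays without GATA1+LSK, Gata1 was at 0.89 with Csrp3, 0.80 with Scin, 0.79 with Mfsd2b, 0.70 with Pde10a, 0.52 with Ufsp1, 0.20 with Slc14a1, -0.0027 with Cavin2 and -0.10 with Ptn. Over the same 18 arrays Pde10a was at 0.56 with Dpf3 and 0.53 with Prss34, and Slc14a1 at 0.21 and 0.34. Ptn was then at 0.34 with Slc6a8, 0.49 with Gp9 and 0.56 with Dlg3. The genes named as nearest to Csrp3, Cavin2, Ufsp1, Mfsd2b and Scin stayed between 0.82 and 0.94. These values are descriptions over arrays that share populations and slides.

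Genes related to each of the 8 by family or pathway were listed with earlier results of these arrays known, and 72 of the 106 listed were measured and tested against GATA1+LSK. Those named below were taken for their large differences among the called genes of each list. Over 288 pairs of gene and comparison, 30 were called higher in GATA1+LSK (10.4%, against 3.11% over all genes) and 23 lower (7.99%, against 3.97%). Against GATA1-LSK it was 4 higher and 2 lower (1.08% and 1.66% of all genes), against LMPP 13 and 7 (3.71% and 4.86%), against CMP 9 and 3 (3.49% and 3.01%) and against LT-HSC 4 and 11 (4.16% and 6.34%). The median difference of the 72 genes lay between -0.05 and 0.12 in the 4 comparisons. With median scaling in place of quantile normalization the counts were 16 higher and 14 lower, with array weights 57 were higher, and without slide 1 they were 16 and 15. Of the calls named below, median scaling ended those of Aqp1, Cavin3, Ehd3, Sdc2, Pde4b and Capg against CMP, of Ehd3, Sgpl1, Sphk1 and Pde1b against GATA1-LSK, of Cavin1 and Cavin3 against LMPP, and of Sgpl1 and Plpp3 against LT-HSC (limma adjusted p from 0.054 to 0.613). Leaving out slide 1 ended those of Cavin1, Cavin3, Icam4, Kel, Sdc1 and Sdc4 against LMPP, of Ehd3, Kel, Sgpl1, Sphk1 and Pde1b against GATA1-LSK, and of Capg against CMP (adjusted p from 0.10 to 1.0).

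Among 9 LIM and Z-disc relatives of Csrp3, 0 were called against GATA1-LSK. Fhl1, a LIM-only gene, averaged 10.50 in GATA1+LSK against 6.76 in LMPP and 7.47 in CMP (limma adjusted p = 1.3e-11 and 8.1e-10), and 10.89 in LT-HSC (adjusted p = 0.20). Actn2, the Z-disc actinin gene, went the other way, with 5.03 in GATA1+LSK against 7.96 in LMPP and 7.07 in LT-HSC (adjusted p = 1.5e-07 and 6.8e-06). Lmcd1 was detected on no GATA1+LSK array and was at least 2.35-fold lower there than in LT-HSC (adjusted p = 5.4e-05). Of the 11 muscle markers on the array, which include Actn2, Myh1, Myh4, Tnnt3 and Myl1 were detected on no array of any population. Their summed linear signal was 327 to 479 in GATA1+LSK, against 371 to 411 in GATA1-LSK, 579 to 809 in LMPP, 384 to 529 in CMP and 439 to 840 in LT-HSC. Ckm, the muscle creatine kinase gene, averaged 5.16 in GATA1+LSK, 4.75 in GATA1-LSK, 4.81 in LMPP, 6.17 in CMP and 4.97 in LT-HSC. Like Csrp3 it had its highest mean in CMP, and in GATA1+LSK it was detected on 3 of the 4 arrays. Another marker, Tnni2, had its lowest mean in GATA1+LSK (6.36, against 6.87 in GATA1-LSK, 7.87 in LMPP, 6.90 in CMP and 7.81 in LT-HSC). Actn2 also had its lowest mean there, and the population means of Mb lay between 5.27 and 5.44. The part of muscle transcripts in the level of Csrp3 was not tested.

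Of 8 caveola genes beside Cavin2, 3 were higher in GATA1+LSK than in LMPP, 2 than in CMP, 1 than in GATA1-LSK and 0 than in LT-HSC. Ehd3, a membrane-shaping ATPase gene, averaged 8.04 in GATA1+LSK against 6.68 in GATA1-LSK, 4.98 in LMPP and 6.00 in CMP (limma adjusted p = 0.011, 1.8e-07 and 6.9e-05). The call against GATA1-LSK was lost with slide as a block (adjusted p = 0.083) and without slide 3 (adjusted p = 0.090). Cavin3 had 9.16 in GATA1+LSK against 7.0 in LMPP and 6.63 in CMP (adjusted p = 3.3e-04 and 7.8e-05). Its other probe put GATA1+LSK below GATA1-LSK (-1.15) and below LT-HSC (-0.62), where this one gave 0.07 and 0.04. Cavin1 was at least 1.80-fold above LMPP (adjusted p = 0.042), a call that was lost in 15 of the alternatives and single-array omissions, among them those of each LMPP array, of GATA1+LSK replicates 1, 2 and 3, and of replicate 2 of GATA1-LSK or CMP (adjusted p up to 0.127). None of the 6 UFM1 pathway genes beside Ufsp1 was called by limma in any of the 4 comparisons, and their median differences lay between -0.13 and 0.19.

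Blood group antigen genes, the relatives of Slc14a1, included Aqp1, Kel and Icam4, and Aqp1 also stood among the erythroid markers used below. Of 14 measured, 2 were higher and 0 lower against GATA1-LSK, 5 and 2 against LMPP, 3 and 1 against CMP, and 3 and 0 against LT-HSC. Aqp1 averaged 11.62 in GATA1+LSK against 8.71 in GATA1-LSK, 5.46 in LMPP, 10.08 in CMP and 9.85 in LT-HSC and was called higher against all 4 (limma adjusted p at most 0.0011). Kel, which carries the Kell antigen in humans, averaged 7.38 in GATA1+LSK against 4.91 in GATA1-LSK (adjusted p = 0.014, 0.062 without GATA1+LSK replicate 4 and 0.096 without slide 4). It was at least 5.50-fold above LMPP (adjusted p = 7.9e-04). Icam4 averaged 11.23 in GATA1+LSK against 8.11 in LMPP and 9.61 in LT-HSC (adjusted p = 8.5e-06 and 0.0044).

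Around Mfsd2b, 13 sphingosine 1-phosphate genes were measured. Sgpl1, the lyase that degrades sphingosine 1-phosphate, averaged 5.09 in GATA1+LSK against 6.48 in GATA1-LSK, 7.42 in LMPP, 6.94 in CMP and 6.36 in LT-HSC, and was called lower against all 4 (limma adjusted p = 6.4e-04, 1.4e-07, 6.2e-06 and 1.2e-04). Its second probe gave the same direction in each, from -1.29 to -0.44. Sphk1, a kinase that makes sphingosine 1-phosphate, averaged 7.14 in GATA1+LSK against 5.40 in GATA1-LSK (adjusted p = 0.0099) and 9.26 in LT-HSC (adjusted p = 1.2e-04), so it was higher than the first and lower than the second. The call against GATA1-LSK was lost without slide 2 (adjusted p = 0.051) and in a fit of the 2 populations alone (adjusted p = 0.070). It was at least 4.66-fold above LMPP (adjusted p = 1.5e-05). Plpp3, a lipid phosphatase gene, was lower than in LT-HSC by -2.42 ± 0.62 (adjusted p = 0.012, 0.062 without GATA1+LSK replicate 4 and 0.098 without slide 3).

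Over the 4 comparisons the lists around Ptn, Pde10a and Scin held 2, 1 and 1 calls in favour of GATA1+LSK. Lower in GATA1+LSK were 3 calls against LMPP and 2 against LT-HSC for the Ptn list. For the Pde10a list it was 1 against GATA1-LSK and 2 against LT-HSC, and for the Scin list 0. Over all genes 3.11% of such pairs were called higher and 3.97% lower. Of 9 receptors and relatives of Ptn, Sdc2 was at least 3.29-fold above LMPP and higher than in CMP by 1.30 ± 0.25 (limma adjusted p = 2.7e-06 and 0.0014, the second 0.124 without slide 4). The related syndecan genes Sdc1 and Sdc4 were lower than in LMPP (adjusted p = 1.5e-04 and 5.0e-05) and lower than in LT-HSC (adjusted p = 4.9e-04 and 4.5e-05). Of 9 phosphodiesterase genes beside Pde10a, Pde1b was lower than in GATA1-LSK by -1.04 ± 0.21 and than in LT-HSC by -2.31 ± 0.19 (adjusted p = 0.0061 and 3.1e-08). The call against GATA1-LSK was lost with slide as a block (-0.84, adjusted p = 0.129), without slide 3 (adjusted p = 0.056) and in a fit of the 2 populations alone (adjusted p = 0.063). Pde2a was lower than in LT-HSC by -2.12 ± 0.36 (adjusted p = 3.3e-04), and Pde4b was higher than in CMP by 1.32 ± 0.23 (adjusted p = 5.8e-04), a call that was lost with all detected probes averaged (adjusted p = 0.173). Of 4 measured members of the gelsolin family, only Capg was called, higher than in CMP by 0.82 ± 0.22 (adjusted p = 0.027), and its other probe gave 0.24. That call was lost without CMP replicate 1 or 2 or GATA1+LSK replicate 2, 3 or 4 (adjusted p from 0.054 to 0.12).

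**Figure D5:**
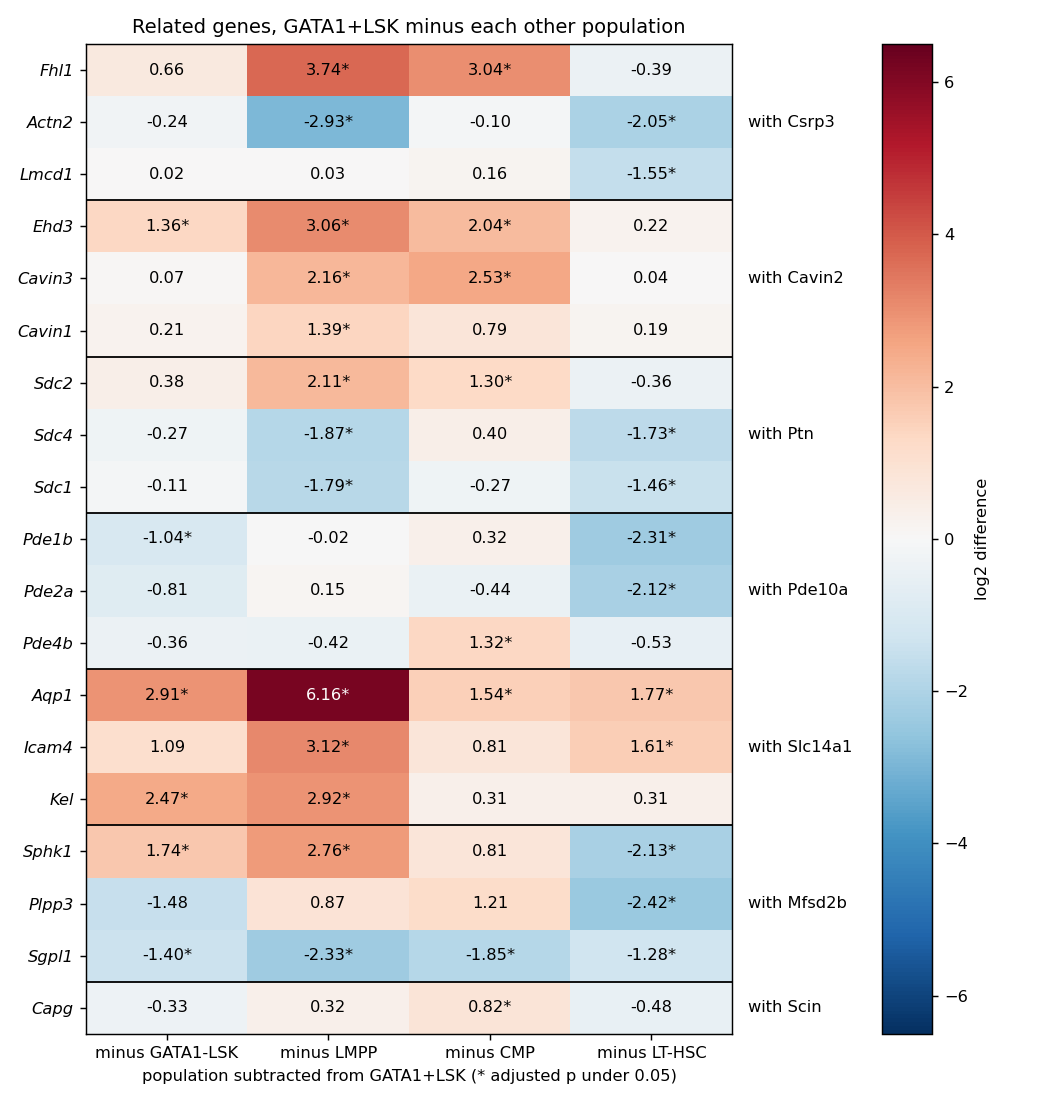
Log2 difference, GATA1+LSK minus each other population, of the related genes named in the text, grouped by the gene they are related to, with a star at a limma adjusted p under 0.05. Aqp1 is higher in all 4 columns (1.54 to 6.16) and Sgpl1 lower in all 4 (-2.33 to -1.28).

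The protein-coding genes next to the 8 on their chromosomes, 2 on each side, gave 13 measured genes of 32. Of their 52 pairs with the 4 comparisons, 4 were called higher in GATA1+LSK and 2 lower, against 3.11% and 3.97% of such pairs over all genes. All 4 higher calls were of 1 gene, Ache, the acetylcholinesterase gene beside Ufsp1. Ache was detected on no array outside GATA1+LSK and so entered the test only through the arrays where it is high, which fixed the direction of its calls. The count of 4 is therefore not read against the share over all genes. All 4 calls were lost in a fit of the 2 populations alone (limma adjusted p from 0.095 to 0.174). They were also lost without slide 4 (adjusted p from 0.061 to 0.105). The level of Ache in GATA1+LSK was at least 1.52-fold above GATA1-LSK, 1.58-fold above LMPP, 1.58-fold above CMP and 1.41-fold above LT-HSC. The lower calls were Wdcp against CMP and Setbp1 against LT-HSC.

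Summed markers of the megakaryocyte and erythroid lineages stood above all other arrays in GATA1+LSK, while single markers of the same lists differed in order. The summed linear signal of 9 megakaryocyte and platelet markers was 13560 to 25140 in GATA1+LSK, against at most 7917 on any other array. That of 8 mast cell, basophil and eosinophil markers was 12640 to 28650 in GATA1+LSK, against 779 to 1387 in GATA1-LSK, 221 to 311 in LMPP, 1378 to 2878 in CMP and 3524 to 18030 in LT-HSC. That of 10 erythroid markers was 3064 to 8388 in GATA1+LSK, against at most 2779 elsewhere. In the other populations the markers detected on no array included Alas2 in all 4, Prss34 in GATA1-LSK, LMPP and LT-HSC, and Gp1bb and Treml1 in LMPP. In GATA1+LSK Gp6 alone was detected on none, but Alas2, Slc4a1, Ermap and Ms4a2 were detected on only 1 of the 4 arrays each. Alas2 was at 7.91 on that array and from 4.32 to 4.73 on the other GATA1+LSK arrays. Linear sums weigh strong probes most, such as Itga2b, Prg2 and Aqp1, with means of 12.73, 13.94 and 11.62 in GATA1+LSK. Other markers had higher means elsewhere. The carbonic anhydrase gene Car1 averaged 8.10 in GATA1+LSK against 8.69 in CMP and 8.73 in LT-HSC, and the mast cell protease gene Cpa3 averaged 8.85 in GATA1+LSK against 10.07 in CMP. Vwf averaged 11.21 in GATA1+LSK against 11.62 in LT-HSC, and Mmrn1, a platelet protein gene, 9.34 in GATA1+LSK against 9.91 in LT-HSC. The GATA1+LSK arrays also differed among themselves, with the globin gene Hba-a1 at 11.13, 5.14, 6.33 and 11.94 and the eosinophil peroxidase gene Epx at 4.72, 5.15, 5.71 and 8.24. The last of these arrays, replicate 4, also had the highest values of Cavin2, Ufsp1, Pde10a, Slc14a1 and Mfsd2b. The part of these markers' cells in the levels of the 8 genes was not tested. The endothelial sums were 4760 to 7023 in GATA1+LSK, 6861 to 9285 in GATA1-LSK, 8939 to 13580 in LMPP, 2862 to 5581 in CMP and 8676 to 12140 in LT-HSC, so those of GATA1+LSK lay below LMPP and LT-HSC and overlapped GATA1-LSK and CMP, and Cdh5 was detected on no array. The stromal sums overlapped between populations (272 to 388 in GATA1+LSK), with Col1a1 and Lum detected on no array.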

How the data were processed

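The study hybridised amplified, biotin-labelled RNA of 22 samples to Illumina mouse bead arrays. Per the labels' protocols, RNA was extracted with Trizol and a clean-up kit, and BeadStudio is named in the submitters' processing notes without a version. The authors deposited a table of non-normalized linear intensity values with a detection p-value for each probe and array, and a second table of intensity values normalized between arrays. The deposited values go below 0, and the background step behind them is not given in the sources used here. Groups and replicate numbers came from the titles and slides from the descriptions.

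The intensities were background corrected from the detection p-values, quantile normalized and put on a log2 scale with neqc of limma 3.58.1 (offset 16) in R 4.3.3. Genes needed a probe detected (p under 0.05) on at least 4 arrays, and the brightest stood for the gene. Of 45281 probes, 10378 named no gene and 18 several, and these were left out. A group-means model (lmFit and eBayes, 17 residual degrees of freedom) gave differences, standard errors and two-sided p-values, adjusted by Benjamini-Hochberg over 11118 genes, with a threshold of 0.05. The number of arrays limits the precision.

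A fold change from a population none of whose arrays detected the probe is a bound, the brighter population's mean over the higher of each dim array's lowest detected signal and the probe's own. The bound carries no sampling error, and an adjusted p beside it tests the difference from the background signal. The script was tested on simulated data. No pair of arrays was identical, and the highest correlation between arrays was 0.991.

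The genes, the lists of relatives and the markers were chosen with earlier results of these data known. Named relatives are up to 3 called genes a list with the largest absolute differences in the 4 comparisons, and the 3 genes most like each of the 8 were taken by Pearson correlation, without clone or predicted names.

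Same-numbered arrays deviated together, at a correlation over 0.1 in every pair, for GATA1+LSK with CMP and LT-HSC, and for LMPP, CMP and LT-HSC with each other. The numbers were therefore used as a replicate block in an alternative fit, while the fit reported is unpaired. This pairing comes from the data and partly follows the slides. The highest correlation, 0.641 for replicate 1 of GATA1+LSK and LT-HSC, was of arrays on the same slide. A pairing and a shared slide cannot be told apart there. Alternatives were other normalizations, the authors' normalized values, other filters, probe averages, slide and replicate blocks, leaving out slides or arrays, fits of 2 populations, robust estimation and array weights.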

Additional observations from a re-analysis of the deposited data

Results flagged for a closer look

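Of 40 sets of arrays (8 genes in 5 populations), 3 held an array that stood apart from the others by Dixon's ratio, and chance alone gives about 1 in 20. Csrp3 was at 8.17 in GATA1-LSK replicate 4, the one GATA1-LSK array on slide 3, while the other 3 lay between 6.18 and 6.49. Pde10a was at 7.46 in GATA1+LSK replicate 4, while the other 3 lay between 6.42 and 6.57, and without that array GATA1+LSK exceeded GATA1-LSK by 1.85 and LT-HSC by 1.80. Cavin2 was at 4.45 in LMPP replicate 1, an array on which it was not detected, as on the other LMPP arrays. The causes were not tested.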

How the results depend on the processing

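The 30 of 32 pairs in which GATA1+LSK lay above another population were 30 on the authors' normalized values, 28 with probes averaged and 25 with median scaling. They were also 30 without any single array or slide. Leaving out arrays can only keep or raise this count, so nothing is read from those omissions. Median scaling also moved the median difference of all genes to -0.22 for GATA1+LSK minus CMP and to 0.29 for CMP minus LT-HSC. Of 544 repeats of the 8 genes' differences between GATA1+LSK and another population under other settings, 500 moved by less than the spread between replicates, 44 by more, and 0 reversed. The 23 calls among the other populations were 10 without slide 1, 22 to 28 without each other slide, 18 with median scaling, 31 with array weights, and 21 to 25 with single arrays left out. Related genes called higher, 30 in the fit reported, were 16 with median scaling, 57 with array weights, 16 without slide 1 and 26 to 31 without single arrays, and those called lower, 23, were 14, 33, 15 and 21 to 25. With the replicate number as a block there were 24 calls of the 8 genes and 36 higher and 29 lower related genes, and of the tests of the 8 genes among the other 4 populations only Ptn for CMP against LT-HSC changed its call. Of 391 repeats of the called tests of the 8 genes under other settings 363 kept the call and 28 lost it, 7 of them Ptn. The cause was not tested, except that fewer arrays remained without slide 1. Levels near background, as of Pde10a outside GATA1+LSK, limit how small a difference could be seen.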
